A study of Homo sapiens with 6 samples.

Results

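The ERK feedback genes of HCC827 cells are described here across flat and gel-embedded culture. The group was fixed by name and holds 10 of the 60504 genes in the deposited table: the dual-specificity phosphatases DUSP1, DUSP2, DUSP4, DUSP5 and DUSP6, the Sprouty genes SPRY1, SPRY2 and SPRY4, and the Sprouty-related genes SPRED1 and SPRED2. Each symbol stood on a single row, and all 10 had a mean of at least 1 TPM (transcripts scaled to a common total), the level from which genes were tested. HCC827 is a human lung adenocarcinoma line with an activating EGFR mutation. The 2D group held 3 libraries of cells grown as a monolayer in uncoated flasks from 1000000 seeded cells for 4 to 6 days. The 3D group held 3 libraries of tumoroids grown from 50000 cells for 12 to 16 days in droplets of Matrigel with reduced growth factors (a gel of basement membrane proteins). Both groups were fed RPMI medium with GlutaMAX, fetal bovine serum, penicillin and streptomycin, and no other treatment is given in the labels. Geometry, gel, time and seeding number differed together, so their effects cannot be told apart.

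In cells driven by a receptor such as EGFR, RAS, RAF and MEK activate ERK kinases, which switch on transcription of their own brakes. DUSP proteins remove phosphates from MAP kinases in the nucleus or cytoplasm, Sprouty proteins interfere between the receptor and RAF, and SPRED proteins bring the RAS inhibitor neurofibromin to the membrane. In EGFR-mutant lung cancer lines several of these transcripts are widely used as readouts of ERK signalling.

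The values are TPM, a share of each library's RNA scaled by transcript length. They hold no read totals, and sequencing depth is therefore unknown here. Whether replicate libraries came from separate cultures is not stated in the labels, so the tests measure spread that may be technical. In bulk RNA, fewer cells expressing a gene and less RNA per cell cannot be told apart. The first principal component of log2(TPM + 1), 52.7% of the variance, separated the cultures. The second, 19.5%, set 2D replicate 3 at 42.0 against -25.6 and -22.4 for the other 2D libraries, and 3D replicate 3 at 18.6 against -8.60 and -4.00. The epithelial markers EPCAM, CDH1, KRT7, KRT8, KRT18, KRT19, NKX2-1 and NAPSA were all present, with a summed TPM of 4910 to 8810 in 3D and 7690 to 9940 in 2D. Of these 8 markers 1 passed the test, KRT7, from 1201 ± 31.4 TPM in 2D to 698 ± 172 in 3D. With 3D replicate 3 left out 4 passed, all lower in 3D, as KRT8, KRT18 and KRT19 then had log2 fold changes of -1.04, -1.04 and -0.86 (limma adjusted p = 0.030, 0.0134 and 0.037). Fibroblast markers summed to 5.50 to 10.9 TPM in 3D and 2.02 to 2.69 in 2D, nearly all of it COL1A1, which rose from 2.3 ± 0.248 to 7.56 ± 2.78 TPM, while COL3A1 was listed at 0 throughout. Both calls were lost in some alternatives, 5 of 18 for KRT7 and 4 of 17 for COL1A1, with adjusted p up to 0.116 and 0.0652. Leukocyte markers summed to at most 3.68 TPM, nearly all of it CD14, and endothelial markers to at most 2.26 TPM.

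The reference gave promoters for 8 members, all but DUSP4 and DUSP5. The 250 bases before the start are shown for the 3 members whose RefSeq start is also the first base of the GENCODE gene. They are DUSP1 and DUSP2, which passed the test described below in every alternative that tested them, and SPRY1, the member with a negative difference. They are read from the minus strand for DUSP1 (chr5:172771196-172771445) and DUSP2 (chr2:96145441-96145690) and from the plus strand for SPRY1 (chr4:123396545-123396794) of GRCh38.p14, 5′ to 3′. Capitals mark the cAMP response element, or CRE, with the letters TGACGTCA.
DUSP1: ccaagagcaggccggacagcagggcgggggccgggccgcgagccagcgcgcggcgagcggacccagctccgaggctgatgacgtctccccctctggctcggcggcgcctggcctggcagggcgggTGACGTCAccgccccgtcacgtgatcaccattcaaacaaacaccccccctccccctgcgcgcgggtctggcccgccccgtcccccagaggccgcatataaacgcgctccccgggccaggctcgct
DUSP2: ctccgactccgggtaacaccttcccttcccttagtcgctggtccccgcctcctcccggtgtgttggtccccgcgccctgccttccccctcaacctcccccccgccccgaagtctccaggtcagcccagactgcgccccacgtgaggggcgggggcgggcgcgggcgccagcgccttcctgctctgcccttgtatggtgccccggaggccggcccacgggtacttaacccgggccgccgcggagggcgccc
SPRY1: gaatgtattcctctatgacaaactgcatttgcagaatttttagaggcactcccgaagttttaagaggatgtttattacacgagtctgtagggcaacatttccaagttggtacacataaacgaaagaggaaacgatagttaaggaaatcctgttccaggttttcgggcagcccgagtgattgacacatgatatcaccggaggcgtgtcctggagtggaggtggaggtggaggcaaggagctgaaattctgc
Counted from the start, with -1 as the base before it, the CRE of DUSP1 lay at -125 to -118, and only this member held a full match among 12 promoter windows of 8 members. Each window ran from 250 bases before to 50 bases after a start, and the motif was found in 1.84% of 34796 such windows of all genes. Its core TGACG was present on either strand in 4 of the 12 member windows, against 24.5% of all windows. They belong to DUSP1, SPRY2, SPRY4 and SPRED2, and in DUSP1 2 of the matches lie within the full CRE. The ETS core CCGGAA occurred in 1 window each of SPRY1 and SPRY2 (17.2% of all windows), and the AP-1 site TGANTCA in 1 of SPRED2 (7.73%). The SPRY1 match lay at -67 to -62 of its other window, which is not shown. Neither the CArG box (1.3% of all windows) nor the NF-kB motif (11.3%) was matched in any of the 12. These matches are descriptions of letters in a window.

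In 3D, 5 of the 10 members rose, the other 5 did not pass the test, and no member fell. The members that rose were DUSP1, DUSP2, DUSP6, SPRY4 and SPRED1 (limma, Benjamini-Hochberg adjusted p under 0.05). Among all 15042 tested genes, 10.2% were called higher and 2.12% lower. In the same 5 members every 3D library lay above every 2D library, which was the case in 27.3% of tested genes, and in no member did every 3D library lie below (9.4% of tested genes). The median log2 fold change of the members was 0.87 on the log2(TPM + 1) scale, against 0.12 for all tested genes, and 9 of 10 were positive against 60.8% of tested genes. Leaving out 2D replicate 3 gave a count of 4, and leaving out both libraries numbered 3 a count of 6. It was 2, DUSP1 and DUSP2, without the filter on low TPM and on leaving out any of 3D replicates 1 and 2 and 2D replicate 2.

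**Figure D1:**
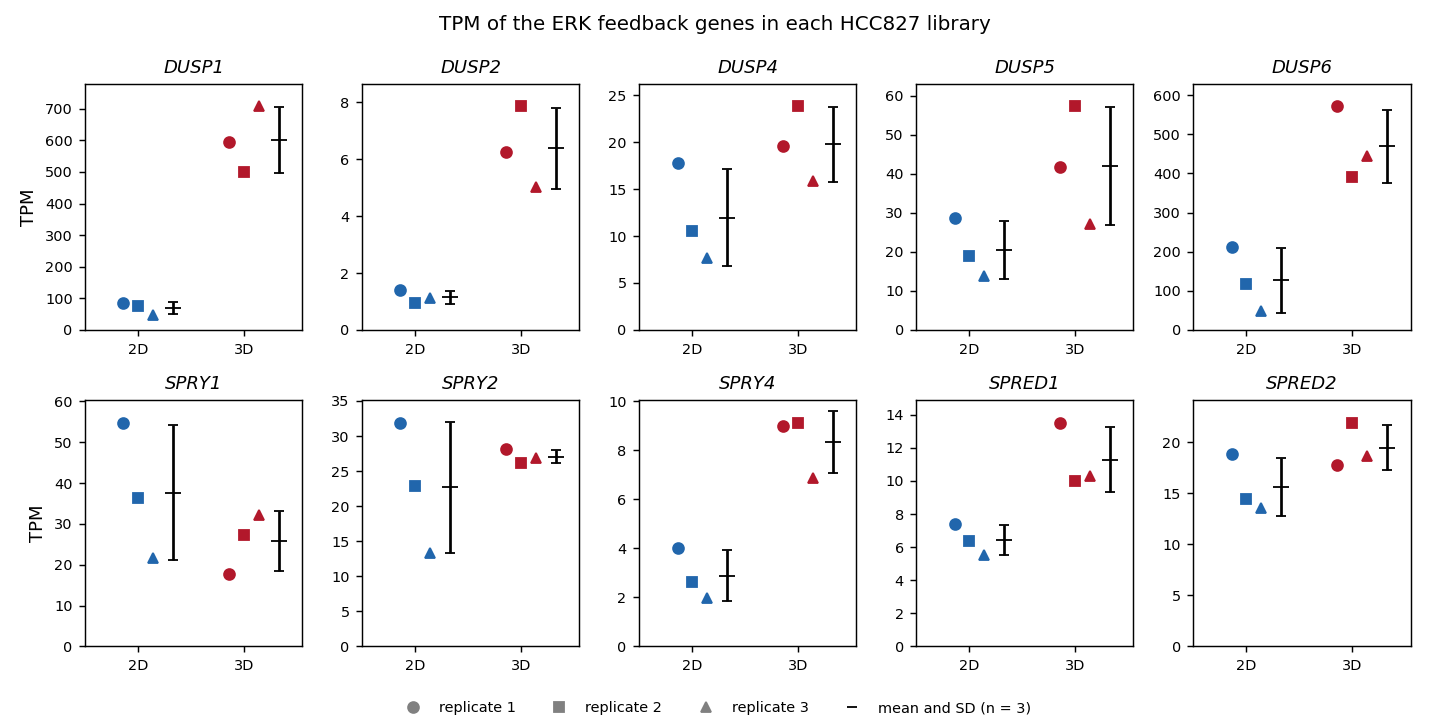
TPM of each ERK feedback gene in 3 2D libraries (blue) and 3 3D libraries (red), with symbols for the replicate number and a bar for the mean and SD; each panel has its own linear axis from 0. The red points of DUSP1, DUSP2, DUSP6, SPRY4 and SPRED1 all lie above the blue ones, whereas those of the other 5 genes overlap.

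DUSP1, a nuclear phosphatase that acts on p38 and JNK as well as ERK, showed the largest difference of the 10. It stood at 594, 500.2 and 709 TPM in the 3D libraries and at 85.4, 74.9 and 48.2 TPM in the 2D libraries. The lowest 3D library thus lay far above the highest 2D library, and the mean was 8.65-fold higher, at 601 ± 104 against 69.5 ± 19.2 TPM (SD, n = 3 each). The log2 fold change was 3.12 (SE 0.23, limma adjusted p = 0.000541), larger than that of 99.7% of tested genes. The gene is a compact one at 172768090 to 172771195 on the minus strand of chromosome 5 (GRCh38, GENCODE 29).

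DUSP2, another nuclear phosphatase of ERK, rose from a low level. Its libraries were at 6.26, 7.87 and 5.01 TPM in 3D and at 1.39, 0.93 and 1.12 TPM in 2D. The groups did not overlap, and the mean was 5.56-fold higher, at 6.38 ± 1.43 against 1.15 ± 0.231 TPM. The log2 fold change of 1.77 (SE 0.21, limma adjusted p = 0.00396) understates that ratio because the added pseudocount of 1 is close to the 2D level. DUSP2 lies at 96143166 to 96145440 on the minus strand of chromosome 2.

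DUSP6, the cytoplasmic phosphatase that acts almost only on ERK and a usual readout of its activity, was abundant in both cultures. It had 572, 392 and 444 TPM in 3D and 213, 117 and 49.5 TPM in 2D. All 3D libraries were higher, but the 2D libraries spread over 4.30-fold against 1.46-fold in 3D. The means were 469 ± 93.0 and 127 ± 82.1 TPM, with a log2 fold change of 2.10 (SE 0.47, 95% interval 1.01 to 3.18, limma adjusted p = 0.0295). The call was lost without 2D replicate 2, without any single 3D library and without the filter on low TPM (adjusted p up to 0.107), with log2 fold changes of 1.95 to 2.22 there. DUSP6 lies at 89347232 to 89353271 on the minus strand of chromosome 12. An antisense gene, AC024909.2, overlaps it over 2257 bases and had 2.11 to 6.75 TPM in 3D and 0.350 to 1.93 in 2D. The library kit was directional, but with no strand setting known for the counting, reads of the pair cannot be told apart. The same holds for DUSP1 and its antisense gene AC022217.3, at 0 to 0.240 TPM, and for the antisense gene of SPRY4 given below.

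The nuclear phosphatases DUSP4 and DUSP5 had positive differences that did not pass the test. DUSP5, which binds ERK and holds it in the nucleus, had 41.7, 57.4 and 27.1 TPM in 3D and 28.6, 19.1 and 13.8 TPM in 2D. Only 3D replicate 3 fell inside the 2D range, just under 2D replicate 1. Its log2 fold change was 1.00 (95% interval 0.24 to 1.76, limma adjusted p = 0.0833), with adjusted p = 0.0232 on leaving out both libraries numbered 3, 0.0423 without 3D replicate 3 and 0.0296 with the replicate number as a block. DUSP4, which acts on ERK and JNK, had 19.6, 23.9 and 15.9 TPM in 3D and 17.7, 10.5 and 7.65 TPM in 2D. Here too 1 library of each group overlapped, and the log2 fold change was 0.74 (95% interval 0.06 to 1.41, adjusted p = 0.131). DUSP4 passed under none of the 18 alternatives run, with adjusted p from 0.0518 to 0.336. DUSP5 lies at 110497838 to 110511544 on chromosome 10 and DUSP4 at 29333064 to 29350668 on chromosome 8.

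The 3 Sprouty genes took different values. SPRY4 had 8.99, 9.13 and 6.87 TPM in 3D and 4.02, 2.62 and 1.99 TPM in 2D. It was the least abundant Sprouty member and the only one whose groups stood apart, with means of 8.33 ± 1.27 and 2.88 ± 1.04 TPM. Its log2 fold change was 1.29 (SE 0.23, limma adjusted p = 0.0154), and the call was lost without the filter and on leaving out any of 3D replicates 1 and 2 and 2D replicate 2 (adjusted p up to 0.0720). SPRY4 spans 142310427 to 142326455 on the minus strand of chromosome 5, and the antisense gene SPRY4-AS1, which overlaps 1163 bases of it, had 0.600 to 1.54 TPM in all 6 libraries.

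SPRY1, an inhibitor of receptor signalling in the same family, was the only member with a negative difference. It had 17.7, 27.3 and 32.2 TPM in 3D and 54.8, 36.4 and 21.7 TPM in 2D. The ranges overlapped widely, with 2D replicate 3 below 2 of the 3D libraries. The log2 fold change was -0.48 (95% interval -1.28 to 0.32, limma adjusted p = 0.374). Without both libraries numbered 3 it was -0.99 with an adjusted p of 0.0355, the only setting of the 18 in which SPRY1 passed. SPRY2 had 28.1, 26.2 and 26.8 TPM in 3D, a nearly constant level, and 31.9, 22.8 and 13.3 TPM in 2D, on both sides of it. Its log2 fold change was 0.33 (95% interval -0.32 to 0.98, adjusted p = 0.454). SPRY1 lies at 123396795 to 123403760 on chromosome 4 and SPRY2 at 80335976 to 80340951 on chromosome 13.

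The balance among Sprouty transcripts was also compared within each library. The log2 ratio of SPRY4 to SPRY1 was -0.98, -1.58 and -2.23 in 3D and -3.77, -3.80 and -3.45 in 2D. SPRY4 was thus the rarer transcript in all 6 libraries, and the ratio was higher in each 3D library, by 2.08 on average. The ratio of DUSP6 to SPRY1 was 4.22 ± 0.69 in 3D and 1.61 ± 0.39 in 2D. The ratio of DUSP6 to SPRY4, by contrast, was 5.81 ± 0.34 and 5.28 ± 0.57 and overlapped between the groups. These are among 7 ratios chosen after the members' values were seen, and they are given as a description, with no test.

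SPRED1 rose modestly and SPRED2 did not pass. SPRED1, whose loss causes Legius syndrome, had 13.5, 10.0 and 10.3 TPM in 3D and 7.38, 6.40 and 5.53 TPM in 2D. The groups did not overlap, and the log2 fold change was 0.72 (SE 0.17, limma adjusted p = 0.0379). It lost the call with median-ratio scaling, with quantile normalization, without the filter and on leaving out any library except 3D replicate 3 (adjusted p up to 0.141). SPRED2 had 17.8, 21.9 and 18.7 TPM in 3D and 18.9, 14.4 and 13.6 TPM in 2D. One 2D library lay inside the 3D range, and the log2 fold change was 0.31 (95% interval -0.08 to 0.69, adjusted p = 0.243). SPRED1 lies at 38252326 to 38357249 on chromosome 15 and SPRED2 at 65310851 to 65432637 on chromosome 2.

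The order of the members by TPM, a scale that accounts for transcript length, differed between the cultures at the top. In 3D, DUSP1 and DUSP6 led with overlapping ranges, and every other member was below the lower of the pair in all libraries, DUSP5 being next at a mean of 42.1 TPM. In 2D, DUSP6 and DUSP1 overlapped as well, and DUSP1 in turn overlapped SPRY1, which came next at a mean of 37.7 TPM. SPRED1, SPRY4 and DUSP2 were the lowest in both, SPRY4 and DUSP2 overlapping in 3D but not in 2D. DUSP1 and DUSP6 together made up 82.9% to 89.0% of the summed TPM of the 10 genes in 3D and 55.4% to 64.4% in 2D. The other 8 genes summed to 143 to 184 TPM in 3D and 78.6 to 165 in 2D, ranges that overlap.

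**Figure D2:**
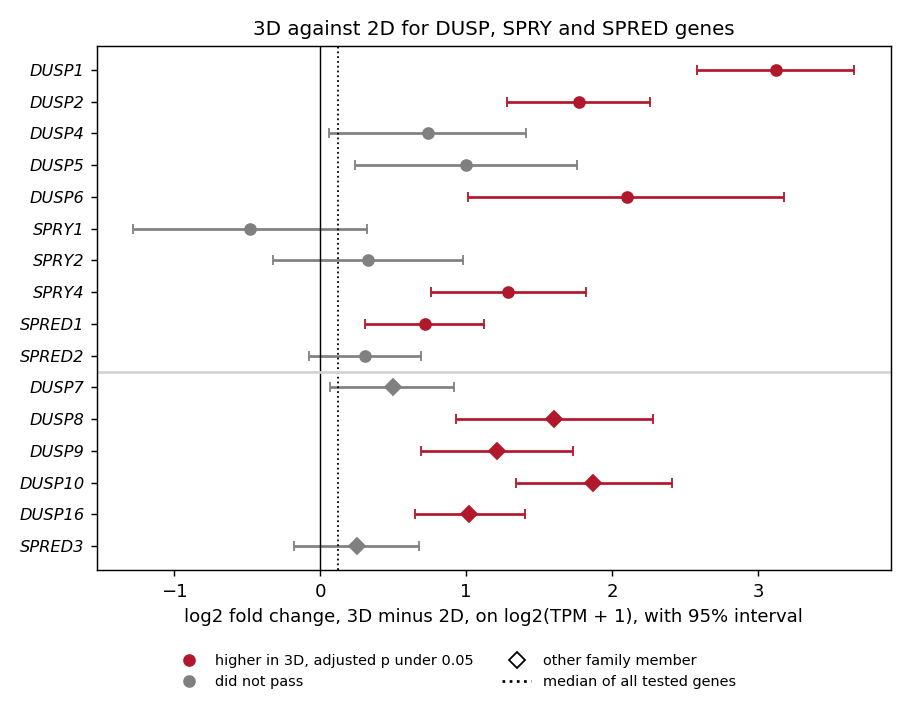
log2 fold change (3D minus 2D, log2(TPM + 1) scale) with its 95% interval for the 10 members (circles) and 6 tested relatives (diamonds); red passed the test, grey did not, and the dotted line is the median of all tested genes at 0.12. DUSP1 is farthest right at 3.12, and SPRY1 alone lies left of 0, with an interval that crosses it.

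Within the 2D group the members varied together. 2D replicate 1 held the highest 2D value of all 10 members, against 41.8% of tested genes, and 2D replicate 3 the lowest of 9, against 40.1%. Both held for 9 of 10 members, DUSP2 being the exception, and for 25.5% of tested genes. The 2D range of DUSP6, 2.08 on the log2(TPM + 1) scale, was wider than that of 98.1% of tested genes. Those of SPRY1, SPRY2 and DUSP4, at 1.3, 1.21 and 1.11, were wider than 93.8%, 92.8% and 91.5%, where the median of all tested genes was 0.41. In 3D the highest library was replicate 1 for 3 members, replicate 2 for 5 and replicate 3 for 2. SPRY2 ranged over 0.10 there, narrower than the median gene at 0.39, and DUSP5 over 1.05. The summed TPM of the 10 members was 463, 305 and 176 in the 2D libraries and 1320, 1076 and 1296 in 3D. These are single libraries, and what sets 2D replicate 1 and replicate 3 apart was not tested.

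**Figure D3:**
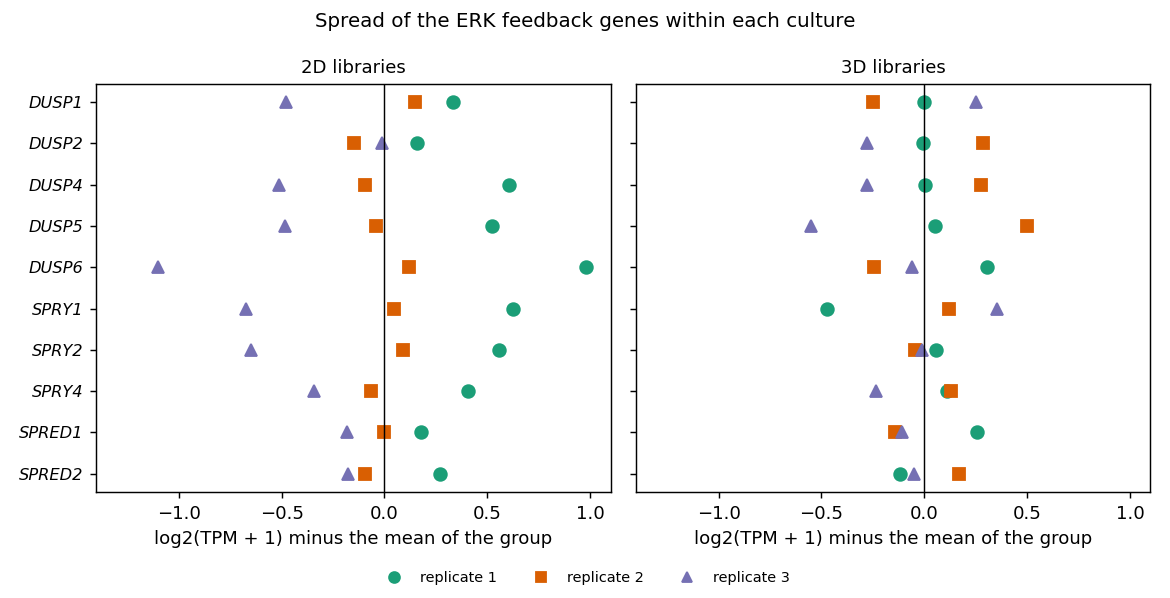
Each library's log2(TPM + 1) minus the mean of its group, for the 10 members in 2D (left) and 3D (right), with colour and symbol for the replicate number. In 2D, replicate 1 is rightmost for all 10 genes and replicate 3 leftmost for 9, whereas in 3D the symbols change places from gene to gene.

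Patterns closest to a member were sought by the root mean square difference over the 6 libraries between log2(TPM + 1) values, each gene centred on its own mean. The 3 tested protein-coding genes nearest to DUSP6 were B3GNT7, OLFM2 and BTG2, at 0.213, 0.280 and 0.282. BTG2, an antiproliferative early-response gene, had 79.9, 50.4 and 52.2 TPM in 3D and 18.1, 15.0 and 7.59 in 2D. Nearest to SPRY4 were BBC3, SMIM5 and MAFF, at 0.0796, 0.0827 and 0.0870. BBC3, which encodes the cell death protein PUMA, had 17.9, 18.9 and 16.4 TPM in 3D and 9.09, 5.75 and 4.77 in 2D, and MAFF, a small MAF transcription factor, 36.3, 39.0 and 30.5 against 19.4, 12.5 and 9.17. Among the members themselves the closest were DUSP4 and DUSP5, at 0.201, and DUSP1 was the most isolated, with its nearest member DUSP6 at 0.653. Values were not scaled, so this distance also takes in the size of the change, which was largest for DUSP1 (log2 fold change 3.12).

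Relatives outside the 10 were measured as well. Of the 6 tested among DUSP7, DUSP8, DUSP9, DUSP10, DUSP16, SPRY3 and SPRED3, 4 rose, 2 did not pass and none fell, with a median log2 fold change of 1.11. Over all tested genes 10.2% were called higher and 2.12% lower. DUSP10, which acts on p38 and JNK, had 28.2, 22.7 and 15.0 TPM in 3D and 5.76, 4.47 and 5.08 in 2D, with a log2 fold change of 1.87 (SE 0.23, limma adjusted p = 0.00432). DUSP16, a JNK phosphatase, had 28.9, 31.5 and 22.8 against 14.6, 12.1 and 12.5 TPM (1.02, SE 0.16), and DUSP8, of the same class, 5.44, 9.48 and 3.91 against 1.58, 1.24 and 1.04 TPM (1.6, SE 0.29). In each of these 3 every 3D library lay above every 2D library, as in 27.3% of tested genes. DUSP9 rose from 0.477 ± 0.211 to 2.41 ± 0.341 TPM, and because its mean over all libraries only just passed the filter, it passed through its 3D level. DUSP7, like DUSP6 a cytoplasmic ERK phosphatase, averaged 6.49 ± 1.16 TPM in 3D against 4.29 ± 0.657 in 2D and did not pass (adjusted p = 0.115), nor did SPRED3 at 4.88 ± 0.919 and 3.92 ± 0.494 TPM (adjusted p = 0.383). SPRY3 averaged 0.580 TPM, too low to be tested. DUSP8, DUSP9 and DUSP16 lost their calls without 3D replicate 1 and without 2D replicate 2, DUSP9 and DUSP16 also without 3D replicate 2, DUSP9 without 2D replicate 1 and DUSP8 without the filter (adjusted p up to 0.0655, 0.0720 and 0.0576), whereas DUSP10 kept its call in all 18 alternatives.

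The kinases that the feedback genes restrain showed smaller differences. Of 22 genes from the receptor through ERK to the RSK kinases that it activates, 4 rose, none fell and 18 did not pass, with a median log2 fold change of 0.22. With both libraries numbered 3 left out, 8 of the 22 were called higher and 1 lower. In that setting 2464 of all 15114 tested genes were called higher and 1356 lower. With all libraries these counts over all genes were 1536 and 319 of 15042. With 1 library left out, 1 to 6 of the 22 were called higher and 0 to 1 lower. Median-ratio scaling gave 2 higher and 1 lower, and quantile normalization and the fit without the filter each gave 1 higher and 0 lower. The gene called lower was MAP2K2 each time. With all libraries its log2 fold change was -0.50 and it did not pass (limma adjusted p = 0.086). EGFR had 415, 494 and 464 TPM in 3D and 341, 317 and 484 in 2D, overlapping ranges in which 2D replicate 3 was the second highest library (log2 fold change 0.29, limma adjusted p = 0.322). It passed with both libraries numbered 3 left out, at 0.46 (adjusted p = 0.0399). MAPK3, which encodes an ERK kinase, had 69.7 ± 19.3 TPM in 3D against 68.3 ± 10.5 in 2D and a log2 fold change of 0.01 (adjusted p = 0.990). RPS6KA3, a kinase that ERK activates, rose from 52.0 ± 5.62 to 100.8 ± 1.61 TPM (0.95, SE 0.13), and the RAS exchange factors SOS1 and SOS2 rose from 7.44 ± 0.734 to 13.9 ± 2.87 and from 9.86 ± 0.495 to 15.2 ± 0.890 TPM. The calls of SOS1 and SOS2 were lost with quantile normalization and on leaving out any library other than those numbered 3, among others (adjusted p up to 0.101 and 0.119). Of 6 genes for RAS inhibitors and related proteins 1 rose, RASA2, from 4.99 ± 0.604 to 8.87 ± 1.95 TPM, a call lost in 12 of 18 alternatives (adjusted p up to 0.148). NF1, the partner of the SPRED proteins, had 17.6 ± 4.05 and 12.8 ± 3.06 TPM (adjusted p = 0.243), and it passed with both libraries numbered 3 left out, at 0.78 (adjusted p = 0.0198). None of 7 JNK and p38 kinase genes passed. By their mean over all 6 libraries the most abundant were MAPK13, at 41.2 ± 3.04 TPM in 3D and 34.3 ± 5.57 in 2D, and MAPK9, at 25.1 ± 0.888 and 26.8 ± 0.921 TPM. MAPK8, a JNK kinase gene, passed with 2D replicate 3 left out, at 0.76 (adjusted p = 0.0329), and with both libraries numbered 3 left out, at 0.88 (adjusted p = 0.0104).

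Genes that ERK switches on outside the feedback group fell into those that rose and those that did not pass. Of 11 tested, 4 rose, none fell and 7 did not pass, and the median log2 fold change was 0.04. The shares over all tested genes were 10.2% called higher and 2.12% lower. The immediate early genes FOS and EGR1 rose from 177 ± 22.5 to 976 ± 122 TPM and from 70.7 ± 12.1 to 364 ± 8.48 TPM, with log2 fold changes of 2.46 and 2.36 (limma adjusted p = 0.000273 and 0.000281), and MYC and IER3 rose as well, IER3 with a log2 fold change of 0.58 and a call that was lost in 11 of 18 alternatives. ETV4 and ETV5, ETS factors often read beside DUSP6, did not. ETV4 had 21.6, 20.3 and 25.6 TPM in 3D and 44.8, 28.9 and 19.3 in 2D (log2 fold change -0.37, SE 0.28, adjusted p = 0.393). Its 2D libraries stood in the same order as those of DUSP6, while its 3D libraries lay within the 2D range. ETV4 passed only without both libraries numbered 3, at -0.76 (adjusted p = 0.0438). ETV5 averaged 10.7 ± 0.384 and 12.2 ± 1.85 TPM (-0.17, SE 0.15, adjusted p = 0.465).

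**Figure D4:**
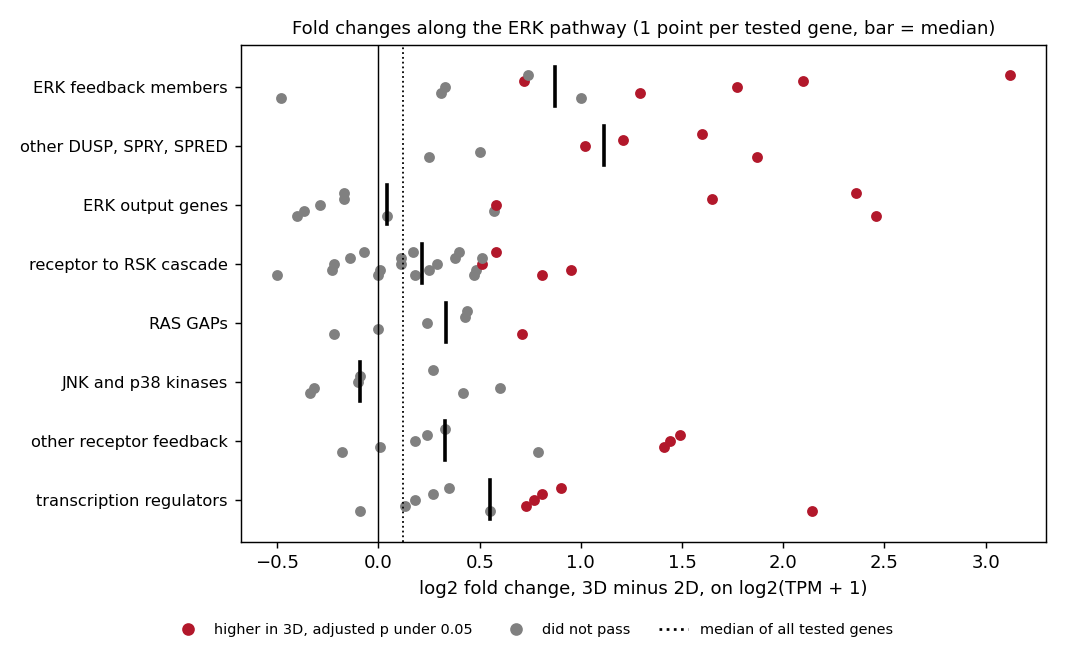
log2 fold change (3D minus 2D, log2(TPM + 1) scale) of every tested gene in 8 groups along the ERK pathway; red points passed the test, grey ones did not, black bars are medians and the dotted line is the median of all tested genes. The members have a median of 0.87, the cascade from receptor to RSK kinases 0.22 and the other ERK output genes 0.04, where FOS and EGR1 lie beyond 2.

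Other brakes on receptors and the transcription factors that act on these genes complete the list. For both lists, the shares over all tested genes were 10.2% called higher and 2.12% lower. Of 9 tested feedback genes outside the DUSP, SPRY and SPRED families, 3 rose, none fell and 6 did not pass, with a median log2 fold change of 0.33. ERRFI1, a direct inhibitor of EGFR, stood at 286 ± 25.1 TPM in 3D against 108 ± 38.6 in 2D (log2 fold change 1.44, SE 0.23, limma adjusted p = 0.0113). SOCS2, a suppressor of cytokine signalling, rose from 7.87 ± 1.68 to 22.5 ± 3.08 TPM, and LRIG1, which promotes receptor turnover, from 0.370 ± 0.159 to 2.91 ± 1.01 TPM, passing the filter through its 3D level. The calls of ERRFI1 and LRIG1 were lost without 3D replicate 2 or 2D replicate 2, and that of LRIG1 also without 3D replicate 1 (adjusted p up to 0.0560 and 0.0617). Of 11 transcription regulators 5 rose, none fell and 6 did not pass, with a median log2 fold change of 0.55. The number called higher was 2 with median-ratio scaling and 3 with quantile normalization. It was 1 without the filter and on leaving out any of 3D replicates 1 and 2 and 2D replicate 2, and 6 without both libraries numbered 3. ETS2, an ERK-activated ETS factor, rose from 7.99 ± 1.42 to 39.1 ± 9.57 TPM (2.14, SE 0.21) and kept its call in all 18 alternatives. FOXO3 and SRF, the factor that binds CArG boxes, rose from 8.42 ± 1.02 to 16.7 ± 3.49 and from 9.90 ± 1.24 to 18.3 ± 3.42 TPM. Both calls were lost without the filter and on leaving out any library other than those numbered 3, and that of SRF also with both rescaling methods (adjusted p up to 0.0862 and 0.117). CREB1, which binds the CRE, had 29.9 ± 2.77 and 27.3 ± 4.69 TPM and did not pass (adjusted p = 0.598).

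Sequence shared with other genes was counted along the transcripts' own strand, and the opposite strand was not compared. No stretch of 75 bases in the GENCODE 29 transcripts of 9 members occurred in a transcript of another gene on that strand, and in SPRED1 0.0851% of stretches were shared with a pseudogene, ACTBP13. The pseudogenes DUSP5P1 and DUSP5P2 were listed at 0 in all libraries. SPRY4-IT1, a transcript named for the SPRY4 locus, had 0.380 to 0.620 TPM in 3D and 0 to 0.190 in 2D, below the filter.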

How the data were processed

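Poly(A) RNA of 6 libraries was sequenced as single-end reads of 75 bases, per the labels' protocols. The authors deposited TPM per gene and library, rounded to 2 decimals, with a total of about 1000000 in each library. The submitters' processing notes name hg38 and, with no role or order, RSEM 1.3.1, STAR 2.7.0d and cutadapt 2.3. No annotation release or strand setting is given in the sources used here. Groups came from the sample titles, and no column was left out.

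All genes whose mean reached 1 TPM were tested, 3D against 2D, on log2(TPM + 1) with limma 3.58.1 (lmFit, eBayes with a trend) in R 4.3.3, two-sided; p-values were adjusted by Benjamini-Hochberg over every tested gene, and 0.05 was the threshold. The fit was tested on simulated data. Alternatives were pseudocounts of 0.1 and 5, no filter, a minimum of 5 TPM, median-ratio scaling, quantile normalization, no mitochondrial genome genes, protein-coding genes only, no trend, the robust option, the replicate block, and libraries left out. Locations and shared stretches came from GENCODE 29 (GRCh38), promoters from RefSeq (GRCh38.p14; windows on chromosome 8 not used). Plots were made in Python 3.11.15 with matplotlib 3.10.9.

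The members and lists were chosen with earlier results of these data known. Named genes were all members, the other DUSP, SPRY and SPRED genes, up to 3 called genes per list by size of change (else the 2 most abundant), EGFR, MAPK3, ETV4, ETV5 and EGR1, and the nearest patterns. One gene picked by this rule is not reported here. NF1, MAPK8, MAP2K2, CREB1 and IER3 were named outside that rule, after their values were seen, as were the overlapping antisense genes.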

Additional observations from a re-analysis of the deposited data

How the results depend on the processing

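With 3 libraries per group and TPM alone, neither depth nor counting error is known, and a rise of some genes lowers the TPM of the rest. DUSP1, DUSP2 and DUSP10 passed in every alternative that tested them (DUSP2 falls under the minimum of 5 TPM), and no called member changed direction in any. Outside the DUSP genes, RPS6KA3, FOS, EGR1, MYC, SOCS2 and ETS2 also passed in all 18 alternatives.

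The number of members called higher was 5, and ranged from 2 to 5 when 1 library was left out; it was 2 without the filter. The number called lower was 0 when 1 library was left out and 1, SPRY1, without both libraries numbered 3, where 6 were called higher. For all tested genes, 1536 were called higher and 319 lower (82.8% higher). These counts were 729 and 86 without the filter, 931 and 662 with median-ratio scaling (58.4% higher), 869 and 576 with quantile normalization (60.1% higher), and 2464 and 1356 without both libraries numbered 3. With 1 library left out they ranged from 367 to 1607 higher and from 29 to 563 lower. Median-ratio scaling and quantile normalization moved the median of all tested genes from 0.12 to -0.03 and -0.04. Fewer samples or more tested genes enter by construction where a library or the filter is removed; beyond that the cause was not tested.

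With the replicate number as a block, 6 members were called higher and 0 lower, DUSP5 being added (adjusted p = 0.0296), and 1479 and 395 of all tested genes were called. Deviations of same-numbered libraries from their group means correlated at 0.101, 0.036 and 0.185 across genes. 3D replicates 2 and 3 correlated best with the 2D library of their own number, and 3D replicate 1 with 2D replicate 2 (0.127). These values do not settle whether the numbers mark a pairing.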
